A study of Homo sapiens with 8 samples.

Results

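The 10 genes described here belong to the glucose-responsive circuit around TXNIP and were followed in AC16, a human cell line, through 8 RNA-seq libraries. They are TXNIP, its α-arrestin relatives ARRDC1, ARRDC2, ARRDC3 and ARRDC4, the sensor MLXIP (MondoA), its paralogue MLXIPL (ChREBP), their partner MLX, and the Krüppel-like factors KLF10 and KLF11. The genes were taken by symbol from the deposited tables, where all 10 were found among 19479 listed genes. TXNIP was lower in every library kept at 25 mM glucose than in any library kept at 5 mM, and MLXIP was higher. Of all genes tested, 26.5% were likewise lower without overlap and 21.9% higher. None of the 9 genes that could be tested passed the test after 24 h at 50 mM glucose against its own control. Few genes of any kind passed, 0.00876% of those tested in the rise from 25 mM and 0.329% in that from 5 mM.

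The study took cells kept for at least 3 passages in medium with 5 mM or 25 mM D-glucose and then raised the glucose to 50 mM for 24 h. The 4 groups, of 2 libraries each, were 25 mM, 25 to 50 mM (25 mM added), 5 mM, and 5 to 50 mM (45 mM added). None of the 4 groups is an osmotic control, and all cells grew in DMEM with fetal bovine serum. AC16 is a dividing line made by fusing adult ventricular cells with a transformed fibroblast line, and the labels call it a cardiomyocyte line. The series describes the repeats as technical, so p-values here measure only the spread between such libraries. The cells kept at 25 mM and at 5 mM stand in separate deposited tables. Any difference in culture or library handling between the sets cannot be told apart from the maintenance glucose.

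MondoA and ChREBP are basic helix-loop-helix leucine zipper factors. Both pair with MLX, respond to phosphorylated sugars such as glucose 6-phosphate, and bind carbohydrate response elements, which are paired E-boxes in target promoters. TXNIP and ARRDC4 are the best-known MondoA targets. TXNIP binds thioredoxin and promotes removal of the glucose transporters GLUT1 and GLUT4 from the cell surface, so the circuit limits glucose uptake when sugar phosphates accumulate. In heart muscle TXNIP is studied for its part in redox control and in the response to high glucose. KLF10 and KLF11 are zinc finger repressors first described as early targets of TGF-β.

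The promoters of TXNIP and ARRDC4 are shown because both genes are reported to be bound by MondoA at promoter E-boxes. Sequences come from the RefSeq promoter table for GRCh38.p14, which spans 250 bases before to 50 bases after each start. It held 13 windows for 9 of the 10 genes. Capitals mark each E-box with 1 relaxed base, CACGNG or its reverse complement CNCGTG. Both lines read 5′ to 3′ on the gene's own strand and cover 120 bases. The TXNIP stretch lies at chr1:145996610-145996729 on the minus strand, from 150 to 31 bases before the start. The ARRDC4 stretch lies at chr15:97960473-97960592 on the plus strand, from 230 to 111 bases before the start.
TXNIP: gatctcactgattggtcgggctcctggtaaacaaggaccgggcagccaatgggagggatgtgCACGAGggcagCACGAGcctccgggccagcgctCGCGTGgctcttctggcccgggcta
ARRDC4: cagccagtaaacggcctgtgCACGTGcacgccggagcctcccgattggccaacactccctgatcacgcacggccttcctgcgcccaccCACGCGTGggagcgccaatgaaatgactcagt

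TXNIP's first window held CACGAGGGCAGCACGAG, 2 relaxed E-boxes in the same direction with 5 bases between them, beginning 88 bases before the start. This layout, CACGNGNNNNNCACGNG on either strand, was found in 20 of the 35116 windows of the table (0.057%). The first TXNIP window had 4 relaxed sites in all, and the window at the second TXNIP start had none. ARRDC4 held the canonical E-box CACGTG 210 bases before its start and 2 overlapping relaxed sites further down, with no pair at that spacing.

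CACGTG was present in 7.26% of all windows and the relaxed form, which includes it, in 30.5%. MLX held a CACGTG 50 bases before its start, and the first KLF11 window held another 182 bases before its start. ARRDC2 had 3 relaxed sites at its first start, and ARRDC3 had 1 at its second start. No E-box of either form lay in the windows of ARRDC1, MLXIP or MLXIPL. These are letter matches in fixed windows and say nothing of which factor was bound in these cells.

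**Figure D1:**
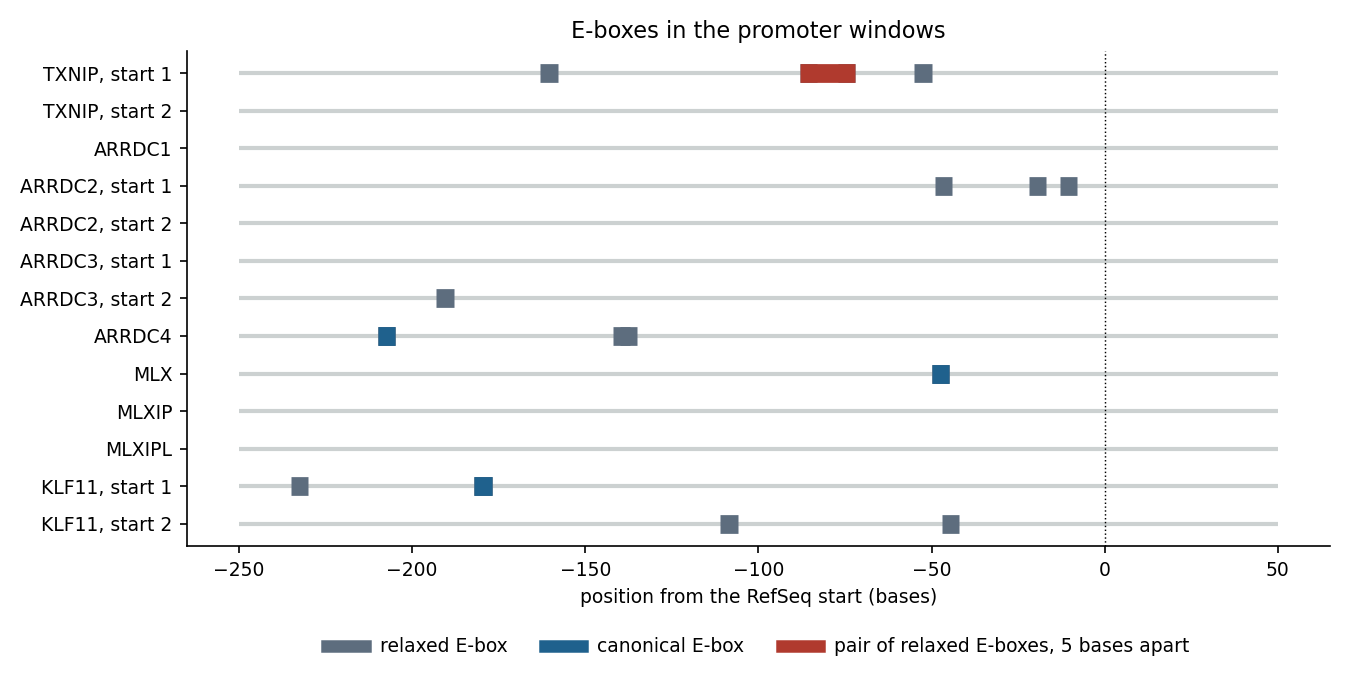
E-box matches in the 13 RefSeq promoter windows of 9 genes, by position from each gene's start in bases (the start is 0, upstream is negative). Grey marks relaxed sites, blue the canonical site and red the spaced pair, which appears in the first TXNIP window and in no other window drawn.

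The levels are RPKM values, reads scaled to counted length and to library depth, and can be compared between genes per length. Read totals recovered from the values ran from 21538898 to 27372851 per library, and 3 reads in a gene of 1 kb would be worth 0.1096 to 0.1393 RPKM. More genes were above 0 in the libraries kept at 5 mM (14841 to 15081) than in those kept at 25 mM (14383 to 14540). Of 12 cardiomyocyte markers, only NPPA reached 1 RPKM in at least 2 libraries, and MYL2 and NKX2-5 were at 0 in all 8. All 10 fibroblast markers reached that level, with summed levels of 7369 to 8181 RPKM in libraries kept at 25 mM and 7798 to 8603 RPKM in those kept at 5 mM. In 25 mM against 5 mM, 6 of these 10 were called higher (such as COL1A1 and THY1) and 3 lower (VIM, FN1 and PDGFRA). Summed smooth muscle markers were 554.6 to 918.5 RPKM in libraries kept at 25 mM and 1011 to 1504 RPKM in those kept at 5 mM, with 5 of 6 listed markers at or above 1 RPKM in at least 2 libraries. Most of that sum was TAGLN (519.3 to 876.1 against 972.3 to 1457 RPKM). The smooth muscle markers were divided in 25 mM against 5 mM, with TAGLN, ACTA2 and RGS5 called lower and CNN1 (26.4 ± 2.55 against 11.5 ± 0.608 RPKM, SD, n = 2) and MYOCD called higher. Summed leukocyte markers were 86.38 to 92.96 against 216.3 to 252.9 RPKM. CD68 alone gave 85.1 to 91.7 against 214.2 to 250.8 RPKM, while PTPRC lay between 0.0856 and 0.214 RPKM, and CD3E was at 0 in all 8. The summed cardiomyocyte markers were 2.062 to 4.178 against 4.878 to 6.35 RPKM, and 1 of 5 endothelial markers reached 1 RPKM in at least 2 libraries. The smooth muscle, leukocyte and cardiomyocyte sums did not overlap between the maintenance glucoses, as TXNIP did not, but a sum follows its most abundant genes. The part of these markers in the results was not tested. In bulk RNA, fewer cells of a type and less RNA per cell cannot be told apart.

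Among the sensors, MLXIP carried most of the signal and MLXIPL almost none. MLXIP (Entrez 22877, chr12:122078756-122147344), which encodes MondoA, a protein that moves between the outer mitochondrial membrane and the nucleus, stood at 28.2 and 25.8 RPKM in the 25 mM libraries and at 28.0 and 27.4 RPKM after the rise to 50 mM. In cells kept at 5 mM it stood at 19.0 and 18.9 RPKM, and after their rise at 20.4 and 18.6 RPKM. The 4 libraries kept at 25 mM were all above the 4 kept at 5 mM, and within each maintenance glucose the 2 conditions overlapped.

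MLXIPL (Entrez 51085, chr7:73593202-73647907), the ChREBP gene known mainly from liver and fat, was listed at 0 in 5 libraries. It had 1 read (0.0147 RPKM) in 25 mM replicate 1, 3 reads (0.0544 RPKM) in 5 mM replicate 1 and 1 read (0.0143 RPKM) in 5 mM replicate 3. All 8 values were at or under the level of 3 reads in this gene, 0.0428 to 0.0544 RPKM, so no fold was computed and the gene did not pass the filter of 1 RPKM in at least 2 libraries. The other 9 genes passed it.

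MLX (Entrez 6945, chr17:42567100-42573203), the partner that both sensors need to bind DNA, varied little. Its levels were 60.9 and 67.1 RPKM at 25 mM, 64.9 and 62.9 RPKM after 25 to 50 mM, 65.7 and 62.6 RPKM at 5 mM, and 66.8 and 62.1 RPKM after 5 to 50 mM. All 4 groups overlapped. In every library MLX was higher per length than MLXIP.

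TXNIP (Entrez 10628, chr1:145992435-145996579) was the highest of the 10 genes per length in every library except 25 to 50 mM replicate 2, where MLX was higher by less than 1 RPKM. Between 1990 and 4523 reads stood behind each value. At 25 mM its libraries read 73.9 and 80.3 RPKM, and after 25 to 50 mM 64.2 and 69.1 RPKM. At 5 mM they read 151.7 and 131.0 RPKM, and after 5 to 50 mM 146.4 and 150.4 RPKM. The lowest library kept at 5 mM was thus well above the highest kept at 25 mM. By group mean the order was 5 to 50 mM (148.4 ± 2.86 RPKM, SD, n = 2), 5 mM (141.3 ± 14.6), 25 mM (77.1 ± 4.56) and 25 to 50 mM (66.6 ± 3.44). The upper neighbours in that order overlapped. The lower neighbours did not overlap but their difference missed the adjusted threshold.

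ARRDC4 (Entrez 91947, chr15:97960703-97973833), the other best-known MondoA target, which also restrains glucose uptake, was low throughout and rested on 28 to 54 reads a library. Its levels were 1.43 and 1.20 RPKM at 25 mM, 1.33 and 1.72 RPKM after 25 to 50 mM, 1.59 and 1.40 RPKM at 5 mM, and 0.954 and 1.37 RPKM after 5 to 50 mM. The libraries kept at 25 mM overlapped those kept at 5 mM. The highest library of all was a 25 to 50 mM library and the lowest a 5 to 50 mM library. The 95% Poisson intervals of those libraries, 1.292 to 2.244 RPKM and 0.634 to 1.379 RPKM, overlapped and cover counting error only.

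The other α-arrestins are trafficking adaptors that recruit ubiquitin ligases of the NEDD4 family through PPxY motifs. ARRDC3 (Entrez 57561, chr5:91368631-91383317), an adaptor for β2-adrenergic receptors, read 4.61 and 5.38 RPKM at 25 mM, 2.94 and 3.99 RPKM after 25 to 50 mM, 7.09 and 6.78 RPKM at 5 mM, and 5.30 and 5.46 RPKM after 5 to 50 mM. Within each maintenance glucose both libraries at 50 mM were below both controls. The 25 mM and 5 to 50 mM libraries overlapped.

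ARRDC2 (Entrez 27106, chr19:18001124-18014102), a less studied relative, read 2.35 and 2.68 RPKM at 25 mM, 2.69 and 1.86 RPKM after 25 to 50 mM, 2.97 and 4.21 RPKM at 5 mM, and 3.81 and 3.45 RPKM after 5 to 50 mM. All libraries kept at 25 mM were below all kept at 5 mM. ARRDC1 (Entrez 92714, chr9:137605686-137615360), known for driving the budding of vesicles at the plasma membrane, read 11.8 and 14.6 RPKM at 25 mM, 10.7 and 9.11 RPKM after 25 to 50 mM, 10.7 and 16.6 RPKM at 5 mM, and 14.0 and 12.5 RPKM after 5 to 50 mM. The 5 mM repeats of ARRDC1 alone spanned most of the range of all 8 libraries.

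KLF10 (Entrez 7071), a reported ChREBP target in liver, followed the maintenance glucose in the same direction as TXNIP. It read 30.3 and 30.5 RPKM at 25 mM, 29.0 and 26.4 RPKM after 25 to 50 mM, 36.5 and 36.3 RPKM at 5 mM, and 39.0 and 38.9 RPKM after 5 to 50 mM. The 4 groups did not overlap, in the order 5 to 50 mM, 5 mM, 25 mM, 25 to 50 mM. KLF11 (Entrez 8462, chr2:10043550-10054836), its close paralogue, stayed within 12.9 to 14.2 RPKM in all 8 libraries. The 5 to 50 mM libraries, at 14.2 and 14.0 RPKM, were above the other 6.

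**Figure D2:**
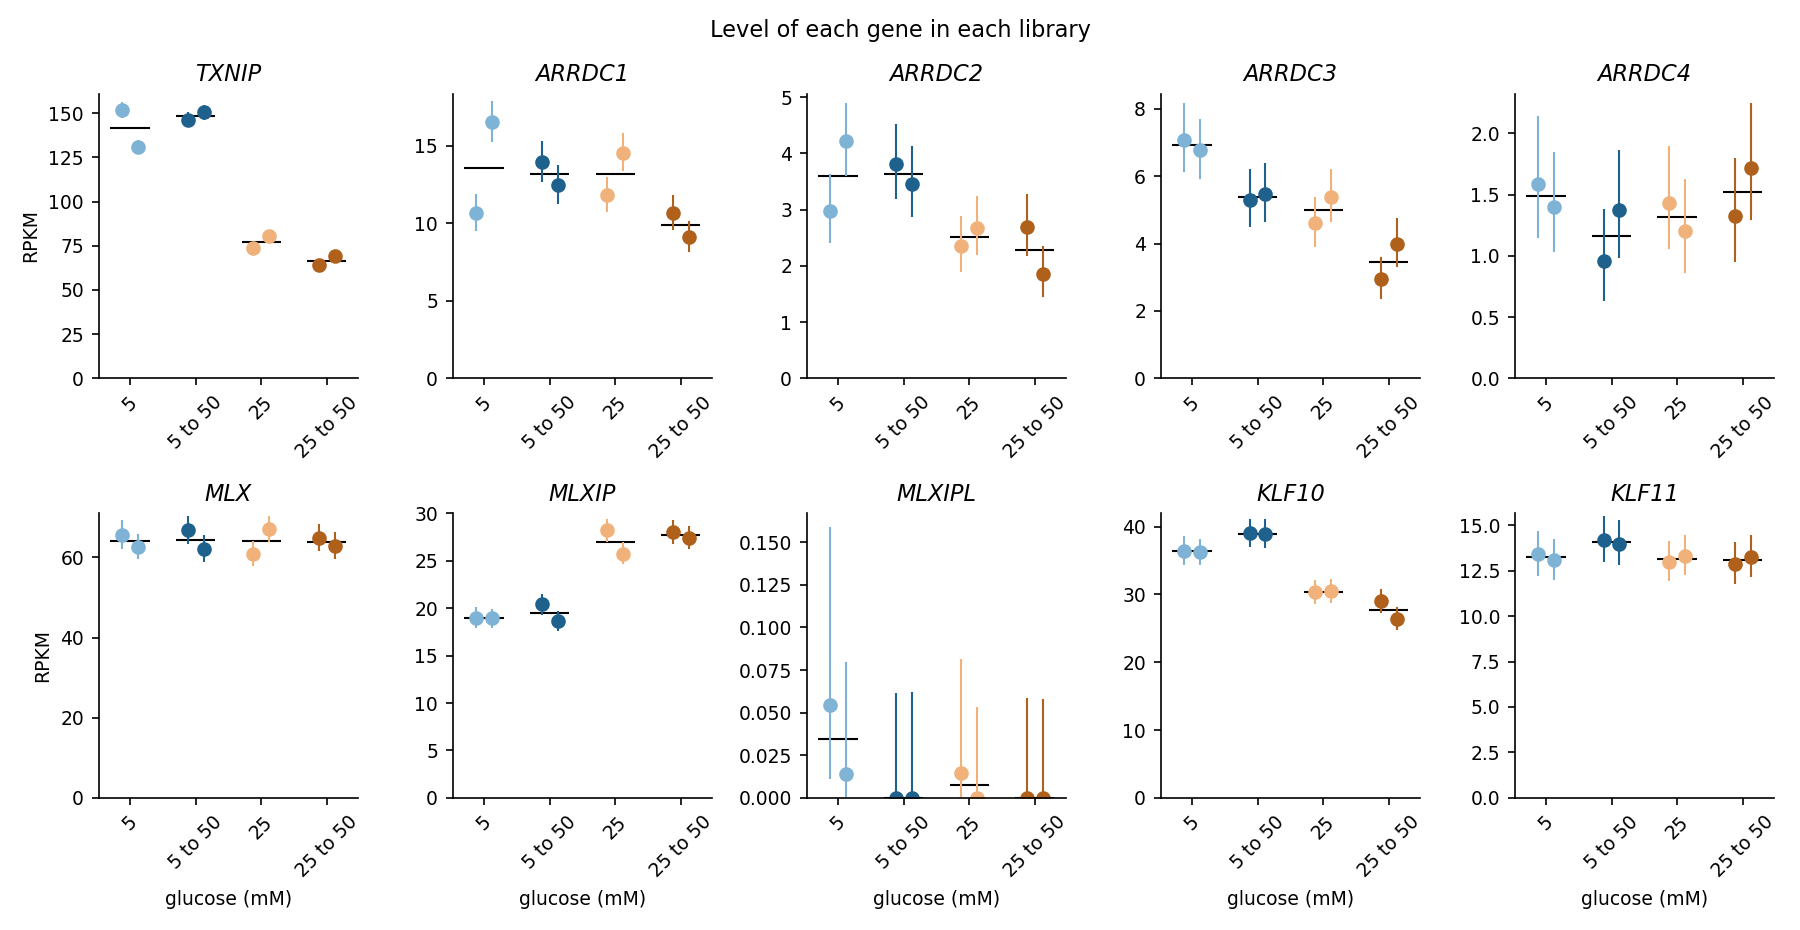
Level of the 10 genes in RPKM in each of 8 libraries, by glucose group in mM. Points are libraries, horizontal lines group means and vertical bars 95% Poisson intervals of the reads. TXNIP and KLF10 sit higher in the 4 libraries kept at 5 mM, MLXIP sits higher in the 4 kept at 25 mM, and MLX is level.

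Comparing cells kept at 25 mM with cells kept at 5 mM, without any rise, asks how the genes differ with the glucose of routine culture. TXNIP, KLF10 and ARRDC3 were lower at 25 mM, MLXIP was higher, and the other 5 genes tested did not pass. These 4 calls of 9 stand beside 39.1% of all 11941 genes tested that were called in the same comparison (17.0% higher and 22.1% lower). The share of these genes called was near that background and is no result about them as a group. The markers given above differed between the same libraries. The test was limma on log2(RPKM + 1) with Benjamini-Hochberg adjustment over all genes, called at an adjusted p under 0.05. Fold changes are on that scale and understate those of low genes.

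TXNIP was 0.550 times the 5 mM level, a log2 change of -0.86 ± 0.08 (SE, 95% interval -1.05 to -0.68, limma adjusted p = 0.000139). Among 9611 genes that averaged 5 RPKM or more, 417 (4.34%) were lowered more. The TXNIP call held under every alternative tried, with log2 changes between -0.97 and -0.76.

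MLXIP was 1.40 times the 5 mM level, a log2 change of 0.49 ± 0.07 (SE, 95% interval 0.32 to 0.65, limma adjusted p = 0.00132). Of the same 9611 genes, 437 (4.55%) were raised more. Its call also held under every alternative, with log2 changes of at least 0.42. The MLX change was -0.0045 on the log2 scale, with an interval of -0.16 to 0.15 (limma adjusted p = 0.965), so a change of MLX as large as that of MLXIP lay outside its interval.

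KLF10 was 0.840 times the 5 mM level, a log2 change of -0.25 ± 0.06 (SE, limma adjusted p = 0.0128). The call was lost without either 25 mM library, with adjusted p of 0.0677 without replicate 1 and 0.0590 without replicate 3. The KLF11 change was -0.01, with an interval of -0.16 to 0.14. The 2 paralogues therefore stood on different sides of the threshold, and the difference between them was not tested.

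ARRDC3 was 0.754 times the 5 mM level, a log2 change of -0.41 ± 0.13 (SE, limma adjusted p = 0.0353). This call was lost when any of 6 of the 8 libraries was left out, the exceptions being both 25 to 50 mM libraries, with adjusted p from 0.0578 (without 25 mM replicate 3) to 0.190 (without 25 mM replicate 1). It was also lost with no filter on low values (0.0647) and in the fit with the replicate block (0.0577). ARRDC2 had a change of nearly the same size, -0.37, with an interval of -0.76 to 0.01 (limma adjusted p = 0.112), and was called only without 5 mM replicate 1 (-0.57, adjusted p = 0.0328).

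The changes of ARRDC1 and ARRDC4 were -0.02 (95% interval -0.46 to 0.42) and -0.11 (-0.42 to 0.21). The ARRDC4 change and its interval are compressed by the added 1 RPKM, so they cannot be set against the change of TXNIP. On recovered reads, with limma voom, the ARRDC4 change was -0.17 (adjusted p = 0.614).

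The same question was put to the separate libraries taken after 24 h at 50 mM, where both sets had the same final glucose. TXNIP, KLF10, ARRDC3 and ARRDC2 were lower in cells that came from 25 mM, and MLXIP was higher. These 5 calls of 9 stand beside 41.4% of all genes called (18.1% higher and 23.3% lower). Centring each library on its median turned the split of all called genes from 2164 higher and 2782 lower to 2799 higher and 2377 lower, and left all 5 directions as they were.

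TXNIP was 0.453 times the level of cells from 5 mM, a log2 change of -1.14 ± 0.08 (SE, 95% interval -1.33 to -0.96, limma adjusted p = 3.08e-05), and 308 of 9611 genes (3.20%) were lowered more. MLXIP was 1.40 times that level, a log2 change of 0.49 (limma adjusted p = 0.00125), the same to 2 decimals as in the controls. KLF10 was 0.717 times, a log2 change of -0.48 (interval -0.62 to -0.34, limma adjusted p = 0.000602), and this call held without any single library. The calls of TXNIP and MLXIP held under every alternative here too.

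ARRDC3 was 0.695 times, a log2 change of -0.53 (limma adjusted p = 0.0121). It was lost without 25 to 50 mM replicate 2 (0.0612), 5 to 50 mM replicate 1 (0.0554) or 5 to 50 mM replicate 2 (0.0674). ARRDC2 was 0.702 times, a log2 change of -0.51 (limma adjusted p = 0.0405). That call was lost without any of 5 libraries, with the largest adjusted p, 0.219, without 25 to 50 mM replicate 3, as well as with no filter (0.0712) and with the replicate block (0.0824).

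ARRDC1 had a change of -0.39 with an interval of -0.83 to 0.06 (limma adjusted p = 0.142), and passed only without 5 mM replicate 1 (0.0322) or replicate 3 (0.0320). For ARRDC4 the change was 0.23 (limma adjusted p = 0.218), with an interval of -0.09 to 0.54, so its direction was not settled. MLX and KLF11 had changes of -0.01 and -0.10.

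The comparison of the controls and that at 50 mM used no library in common for their means, though they shared an estimate of spread. Both set the same maintenance glucoses against each other, so a difference in culture or handling between the sets could enter both. Of all genes, 3884 were called in both, 83.15% of those called in the controls and 78.53% of those called at 50 mM, and 3882 of them had the same direction. TXNIP, KLF10, ARRDC3 and MLXIP were among these. Over the 4 libraries of each maintenance glucose, TXNIP, KLF10 and ARRDC2 did not overlap and were lower at 25 mM, beside 26.5% of all genes, and MLXIP did not overlap and was higher, beside 21.9% (48.3% in either direction). The ratio of the means over 4 libraries was 0.496 for TXNIP, 0.663 for ARRDC2, 0.687 for ARRDC3, 0.771 for KLF10 and 1.42 for MLXIP.

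**Figure D3:**
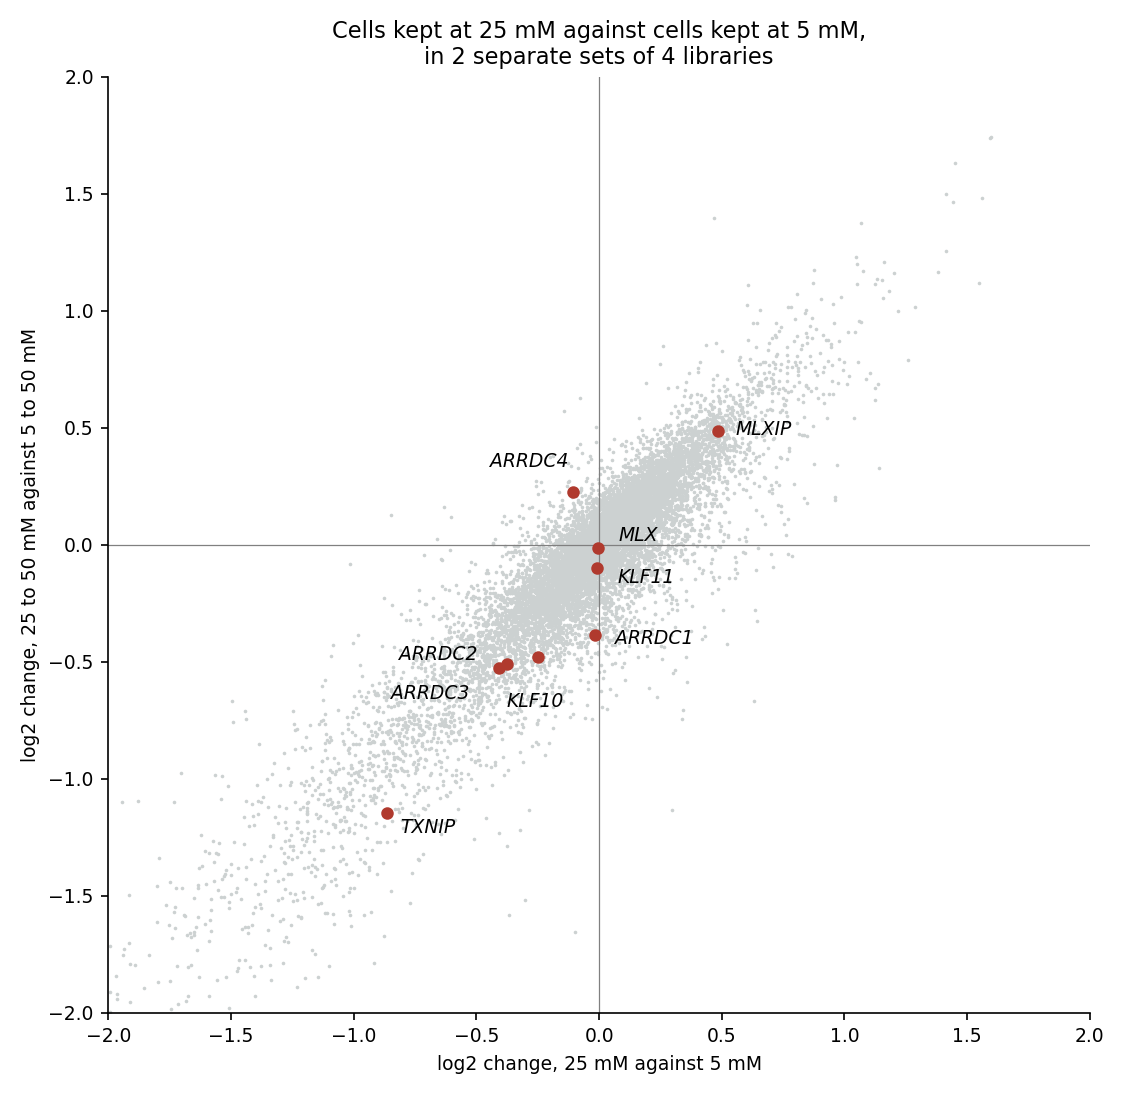
Log2 change between cells kept at 25 mM and at 5 mM in the control libraries (horizontal axis) and in the libraries at 50 mM (vertical axis). Grey points are genes tested, with 166 of 11941 beyond the axis limit of 2 not drawn, and red points are the 9 genes that passed the filter. TXNIP lies at -0.86 and -1.14, MLXIP at 0.49 on both axes, and ARRDC4 at -0.11 and 0.23.

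The rise from 25 to 50 mM asks what an acute increase does to cells already in high glucose. No gene of the 9 tested was called, beside 0.00876% of 11422 genes, which is a single gene. At an unadjusted p under 0.05 stood 3 of the 9, all with lower values at 50 mM, and 1057 of all genes. TXNIP had a log2 change of -0.21 (95% interval -0.36 to -0.05, limma adjusted p = 0.502). ARRDC1 had -0.38 (-0.68 to -0.09, limma adjusted p = 0.502) and ARRDC3 -0.43 (-0.78 to -0.09, limma adjusted p = 0.502).

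In that rise TXNIP, ARRDC1, ARRDC3 and KLF10 had both 50 mM libraries below both controls, beside 29.1% of all genes, and none had both above, beside 14.4%. The KLF10 change was -0.13 (interval -0.30 to 0.03), and that of ARRDC4 was 0.12 (-0.21 to 0.45). MLXIP, MLX, KLF11 and ARRDC2 had changes of 0.04, -0.0008, -0.01 and -0.11. The TXNIP interval ends at -0.05, but it is not adjusted for the number of genes tested and covers only the spread between technical repeats. It therefore cannot exclude an increase of TXNIP between cultures. On recovered reads with limma voom, 7 genes were called in all and none of the 9.

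The rise from 5 to 50 mM is the larger step, with 45 mM added. Again no gene of the 9 was called, beside 0.329% of 11849 genes (37 higher, 0.312%, and 2 lower, 0.0169%). ARRDC3 was the only one at an unadjusted p under 0.05, which 1246 genes in all reached, with a log2 change of -0.31 (95% interval -0.54 to -0.08, limma adjusted p = 0.339). TXNIP had a log2 change of 0.07 with an interval of -0.13 to 0.28 (limma adjusted p = 0.829), whose upper end is a 1.21-fold increase.

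In this rise ARRDC3 and ARRDC4 had both 50 mM libraries below both controls, beside 26.0% of all genes, and KLF10 and KLF11 had both above, beside 16.6%. The changes were -0.21 for ARRDC4 (interval -0.57 to 0.15), 0.10 for KLF10 (-0.05 to 0.25) and 0.08 for KLF11 (-0.11 to 0.28). MLXIP, MLX, ARRDC2 and ARRDC1 lay at 0.04, 0.01, 0.02 and -0.01. ARRDC1's interval was the widest, -0.51 to 0.49, so changes of ARRDC1 within that range could not be told from 0.

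The difference between the rises, from 25 mM minus from 5 mM, was tested as an interaction. None of the 9 was called, beside 0.0251% of genes (3 of 11941, with 0.00837% higher and 0.0167% lower). TXNIP and KLF10 were at an unadjusted p under 0.05, as were 721 genes. Their differences were -0.28 (interval -0.54 to -0.02, limma adjusted p = 0.804) and -0.23 (-0.43 to -0.03, limma adjusted p = 0.781). ARRDC4 had the highest of the 9, 0.33, with an interval of -0.11 to 0.77. By limma voom 0 genes of the 9 were called in the interaction as well.

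**Figure D4:**
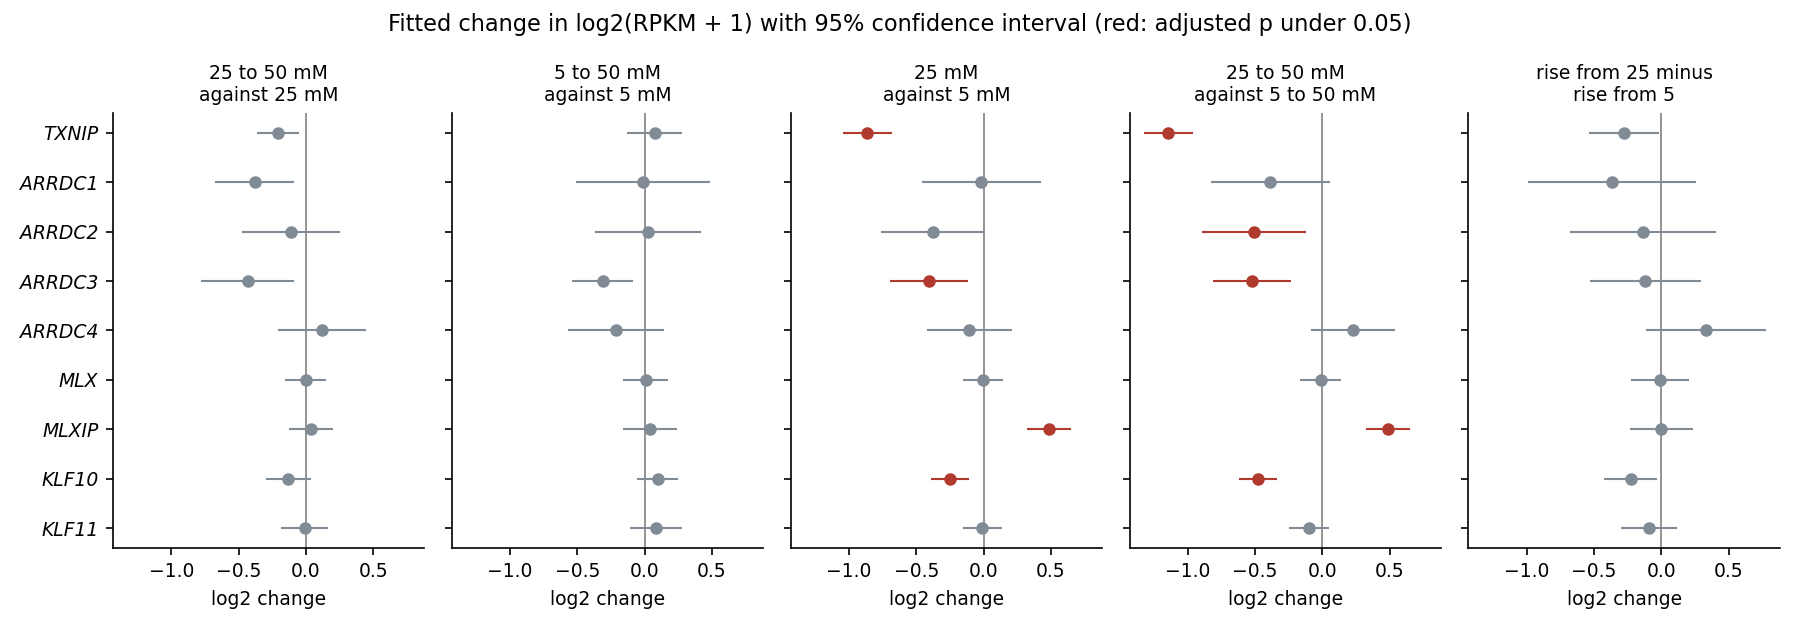
Fitted change in log2(RPKM + 1) of 9 genes in the 5 comparisons, with 95% confidence intervals (horizontal axis in log2 units). Red points were called: 0 in either rise, 4 in 25 mM against 5 mM, 5 at 50 mM and 0 in the difference between the rises.

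Likeness to TXNIP over the 8 libraries is given as a description, since the libraries share the maintenance split. Pearson's r in log2(RPKM + 1) was 0.956 for KLF10, 0.802 for ARRDC3, 0.790 for ARRDC2, 0.700 for KLF11, 0.428 for ARRDC1, 0.145 for MLX, -0.252 for ARRDC4 and -0.977 for MLXIP. Of 9610 other genes averaging 5 RPKM or more, 752 had an r of at least 0.95, so many genes shared a high r. The 5 most alike were OSMR (0.998), a cytokine receptor subunit, MORC4 (0.997), PTPRK (0.995), a receptor tyrosine phosphatase, SRPX (0.995) and TM7SF3 (0.994). ARRDC4 had no gene at 0.95 or above, and its nearest were PHF13 (0.941), TGFBRAP1 (0.925) and CNDP2 (0.923).

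The surrounding pathway was read from 9 lists of 92 distinct genes. With 39.1% of all genes called at 25 mM against 5 mM and 41.4% at 50 mM, a share near these in a list is no result about it, and the lists were not tested as sets. Glucose entry and phosphorylation genes encode proteins that TXNIP acts on or that supply MondoA with its ligand. Of 6 tested, 4 were lower and 0 higher in 25 mM against 5 mM, with a median log2 change of -0.46 beside -0.004 for all genes. They were SLC2A3 (GLUT3, 19.0 ± 0.123 against 38.4 ± 0.276 RPKM, SD, log2 -0.98), HK2 (14.2 ± 0.280 against 26.95 ± 0.777 RPKM, -0.88), SLC2A1 (GLUT1, 59.4 ± 2.03 against 87.8 ± 2.98 RPKM, -0.56) and HK1 (-0.37). SLC2A8 and SLC2A12, the remaining transporters tested, had -0.11 and 0.31 and did not pass. The same 4 were lower at 50 mM, by -0.85, -0.63, -0.38 and -0.42 in that order, with a list median of -0.40 beside -0.02 for all genes. SLC2A4, the insulin-responsive GLUT4 gene, did not pass the filter.

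Of 15 tested genes reported elsewhere as MondoA or ChREBP targets, 5 were lower and 1 higher at 25 mM, with a median of -0.11, a share of calls near that of all genes. KHK (ketohexokinase) had a log2 change of -0.91, HK2 of -0.88, ACACB of -0.58 and TKFC of -0.41, while ELOVL6, a fatty acid elongase, had 0.27. At 50 mM 6 were lower, led by KHK (-0.64), HK2 (-0.63), ACACB (-0.60) and TKFC (-0.40), and ELOVL6 was again higher (0.30), with a median of -0.22. HK2 stands in this list and in the list before. PKLR, GPD1, FGF21, G6PC and RGS16 did not pass the filter.

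In the MYC, MAX and MXD network, whose proteins share the E-box with MLX, 2 of 8 tested genes were lower at 25 mM, MAX (-0.42) and MXD1 (-0.38), and MYC was higher (0.41). At 50 mM MAX (-0.28) and MXD1 (-0.37) were lower and none higher. The list medians were 0.08 and -0.01.

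The thioredoxin list holds thioredoxins, among them TXN, the binding partner of TXNIP, with their reductases and peroxiredoxins. TXN stood at 1292 to 1464 RPKM over the 8 libraries. Of 9 tested, TXNRD1 was higher at 25 mM (0.45) and PRDX5 (-0.27), TXN2 (-0.18) and PRDX2 (-0.14) were lower. At 50 mM TXNRD1 (0.39) and PRDX3 (0.22) were higher and PRDX5 (-0.32) was lower. TXN did not pass in either, and the list medians were 0.02 and 0.03.

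Among 8 tested ligases that bind PPxY motifs of α-arrestins, NEDD4L was lower at 25 mM (24.45 ± 0.519 against 54.5 ± 5.61 RPKM, SD, log2 -1.12) and at 50 mM (-1.11). WWP2 was higher in both (0.39 and 0.40), and SMURF2 was lower at 50 mM (-0.43), with list medians of -0.08 and -0.04. The β-arrestins, distant relatives of the α-arrestins, were split, with ARRB1 lower (-0.93 and -0.81) and ARRB2 higher (0.20 and 0.30).

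Of 13 other KLF and SP factors tested, 2 were lower at 25 mM, KLF4 (-1.52) and KLF3 (-0.49), and 3 higher, KLF12 (0.56), KLF5 (0.42) and SP3 (0.24). At 50 mM 3 were lower, KLF4 (-1.85), KLF3 (-0.66) and KLF6 (-0.36), and 4 higher, KLF12 (0.69), SP4 (0.40), KLF5 (0.26) and SP3 (0.19). The list medians were 0.11 and -0.06, so KLF10 lay among factors that moved in both directions.

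Of 12 tested partners of KLF10 and KLF11 or TGF-β pathway genes, 3 were lower at 25 mM, SMAD7 (-0.70), TGFB1 (-0.64) and SMAD2 (-0.23), and 0 higher. At 50 mM 5 were lower, led by TGFB1 (-1.01), SMAD7 (-0.92), SKIL (-0.31) and SMAD2 (-0.29), and SIN3A was higher (0.26). The medians were -0.02 and -0.12. Of 6 AMPK subunits, PRKAA2 (-0.46) and PRKAB1 (-0.16) were lower at 25 mM and PRKAB2 (0.45) and PRKAG2 (0.34) higher. At 50 mM only PRKAG2 passed (0.25), and the medians were 0.01 and 0.10.

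**Figure D5:**
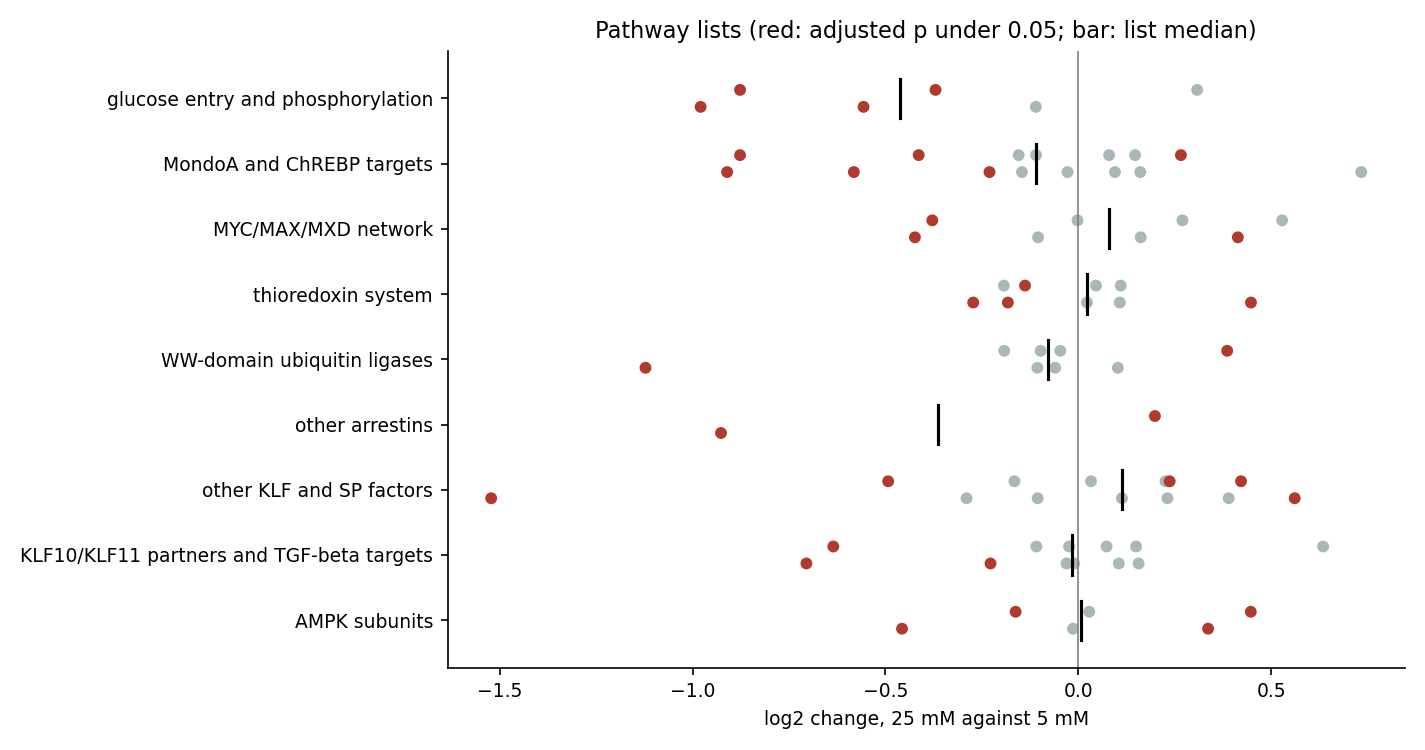
Log2 change in 25 mM against 5 mM of the tested genes of 9 lists (points), with red for an adjusted p under 0.05 and black bars for list medians. Glucose entry genes lie lowest by median (-0.46), and genes of every list lie on both sides of 0.

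In the rises the lists are given by their largest changes. SLC2A1 and SLC2A12 had the largest changes among glucose entry genes after 25 to 50 mM, 0.24 and -0.38, and HK2 and SLC2A8 after 5 to 50 mM, -0.30 and -0.23. Among target genes the values were -0.51 for IRS2 and -0.21 for FASN after 25 to 50 mM, and 0.33 for PGM2L1 and 0.30 for SCD after 5 to 50 mM. None of these 8 passed the test.

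For 6 further lists the 2 largest changes in each rise are given, none of which passed. In the MYC network these were MXD3 (-0.66) and MNT (-0.41) from 25 mM, and MXD3 (-0.46) and MYC (0.40) from 5 mM. In the thioredoxin system they were PRDX1 (0.12) and PRDX2 (0.10), and PRDX1 (0.18) and PRDX3 (-0.08). Among the ligases they were SMURF2 (0.14) and WWP2 (-0.10), and the same genes at 0.38 and -0.11. The β-arrestins ARRB1 and ARRB2 had 0.12 and -0.05 from 25 mM, and 0.01 and -0.15 from 5 mM. Other Krüppel-like factors had KLF2 (-0.41) and KLF16 (-0.33), and KLF6 (0.43) and KLF9 (-0.29). AMPK subunits had PRKAB2 (-0.33) and PRKAB1 (-0.08), and PRKAB1 (-0.21) and PRKAA2 (-0.11). No gene of the 9 lists was called in the difference between the rises.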

How the data were processed

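RNA from 8 libraries was sequenced with standard Illumina preparation, per the labels' protocols. The authors deposited RPKM values in 2 tables, 1 for each starting glucose, joined here on Entrez number. The submitters' processing notes name STAR and hg38. The counter, annotation, gene lengths and strand handling are not given in the sources used here. Whole reads were recovered from the RPKM steps (100% of genes above 0 within 0.01 reads), and 83.7% of the implied lengths were multiples of 3, so lengths are mostly coding length. Tables were compared because upper quartiles of RPKM differed by 1.054 times, under a limit of 1.5.

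The 10 genes and all lists were chosen with earlier results of these data known. All 10 are named in every comparison; of each list the called genes are named, up to 4 per direction, or in a rise with none called the 2 with the largest change (lists are given as a count in the interaction); likeness names 5 genes for TXNIP and 3 for ARRDC4. limma 3.58.1 (R 4.3.3), with a mean-variance trend, tested log2(RPKM + 1) in genes that reached 1 RPKM in 2 or more fitted libraries. Each rise was fitted on its 4 libraries, the rest on all 8. Alternatives were pseudocounts of 0.1 and 0.5, no filter, median centring, no trend, limma voom on recovered reads, a joint fit, a replicate block, and leaving out each library. The model was tested on simulated data with a preset spread, which was not estimated from these libraries. Python 3.11.15, pandas 2.3.3, numpy 2.4.6, scipy 1.17.1 and matplotlib 3.10.9 were used. Comparison of protein sequences was not run, and some genes of the lists are not reported here.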

Additional observations from a re-analysis of the deposited data

How the results depend on the processing

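Of 621 values of the 9 genes recomputed in 45 results, 553 kept their direction and their side of the threshold, 20 lost the call, 3 gained it and 45 changed sign. In 22 results nothing changed under any alternative, among them all 4 changes of TXNIP and MLXIP by maintenance glucose. The number of genes called in the rise from 25 to 50 mM was 1, and became 0 with no filter, no mean-variance trend or the replicate block, 4 with median centring or the joint fit, 7 with limma voom, and 0 to 777 without a library (777 without 25 to 50 mM replicate 2). In the rise from 5 to 50 mM it was 39, and became 0 with no filter, no trend or the block, 60 with centring, 130 with the joint fit, and 0 to 805 without a library (805 and 560 without 5 mM replicate 1 or 3, 4 and 0 without 5 to 50 mM replicate 1 or 2). For 25 mM against 5 mM it was 4671, with 3024 to 4769 without a library (3024 without 25 mM replicate 1). At 50 mM it was 4946, with 3177 to 5733 (3177 and 3242 without 5 to 50 mM replicate 1 or 2). In the difference between the rises it was 3, and became 0 with a pseudocount of 0.1 or 0.5, voom or the block, 1 with no filter or no trend, and 0 to 6 without a library (6 without 25 mM replicate 1). Of the 9 genes, 2 to 4 were called in 25 mM against 5 mM and 3 to 6 at 50 mM when a library was left out, and none under any alternative in the rises or their difference. Leaving a library out leaves a group of 1, assumed to vary like the others. The cause of these shifts was not tested.

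The sign changes were all of uncalled values. With median centring these were, in the rise from 25 mM, MLX 0.048 and KLF11 0.040; in the rise from 5 mM, ARRDC1 0.0040; at 25 mM against 5 mM, ARRDC1 0.0016, MLX 0.015 and KLF11 0.011; at 50 mM, MLX 0.048; and in the difference, MLX 0.033. With the replicate block they were MLX 0.015 and KLF11 0.0051 from 25 mM, and ARRDC1 0.043 and ARRDC2 -0.010 from 5 mM. Without a library, log2 changes in the rise from 25 mM ran from -0.30 to 0.071 for ARRDC2, -0.070 to 0.068 for MLX, -0.024 to 0.10 for MLXIP and -0.029 to 0.011 for KLF11. In the rise from 5 mM they ran from -0.031 to 0.18 for TXNIP, -0.31 to 0.28 for ARRDC1, -0.17 to 0.22 for ARRDC2, -0.046 to 0.059 for MLX and -0.025 to 0.10 for MLXIP. At 25 mM against 5 mM they ran from -0.31 to 0.28 for ARRDC1, -0.073 to 0.064 for MLX and -0.026 to 0.0086 for KLF11, and at 50 mM from -0.065 to 0.040 for MLX. In the difference they ran from -0.33 to 0.059 for ARRDC2, -0.29 to 0.051 for ARRDC3, -0.076 to 0.061 for MLX and -0.062 to 0.064 for MLXIP.

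Deviations of samples with the same replicate number correlated at 0.258 for replicate 1 of 25 mM and 5 mM, over 11941 genes. They correlated at -0.224 for replicate 3 of 25 mM and 25 to 50 mM, and at -0.361 for replicate 1 of 5 mM and 5 to 50 mM. The signs differed, so the numbers were not taken as pairs, though with 2 libraries in a group this check is weak. With the replicate block 3456 genes were called in 25 mM against 5 mM and 3420 at 50 mM, and 3 and 4 of the 9 genes. ARRDC4, with 28 to 54 reads, and MLXIPL, with 0 to 3, are limited by depth.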
